A study of Mus musculus with 31 samples.

Results

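Leptin and insulin tell the hypothalamus how much fat is stored and how much has been eaten, and 10 genes of their receptor signalling were followed here in mice whose mothers ate an obesogenic or a control diet. The genes were listed by name as the pathway from receptor to transcription factor, with earlier results of these data known. They are the receptors Lepr and Insr, the kinase Jak2, the transcription factors Stat3 and Foxo1, the adaptors Irs1 and Irs2, the kinase subunit Pik3r1 and the inhibitors Socs3 and Ptpn1. All 10 of 10 were among the 54532 genes counted and among the 18743 with enough reads to be tested.

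Total RNA of the hypothalamus of C57BL/6J mice, an inbred strain, was sequenced in 31 libraries. Dams had been fed either a high-fat, high-sugar (obesogenic) diet or a control diet through pregnancy and lactation, and pups went onto chow at weaning on postnatal day 21. From 3 months every offspring, those of control dams included, was given the obesogenic diet for 4 weeks, and tissue was taken at 4 months, so no group was free of that diet as an adult. By the diet of the dam, there were 7 obesogenic female, 8 control female, 8 obesogenic male and 8 control male libraries. Animals and litters are not identified in the labels, and p-values therefore measure only the spread between these libraries, which may be partly technical.

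Leptin binds LEPR on hypothalamic neurons and activates the kinase JAK2, which phosphorylates STAT3; STAT3 then moves to the nucleus and turns on target genes, among them Socs3. SOCS3 in turn blocks JAK2 and the receptor, and PTPN1 (PTP1B) removes phosphate from JAK2 and from the insulin receptor, so both limit the response to the hormones. The insulin receptor works through IRS1 and IRS2, which recruit the PI3 kinase that PIK3R1 regulates, and the AKT activated by it keeps FOXO1 out of the nucleus. Much of this signalling runs through phosphorylation, which RNA levels do not measure.

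Promoter sequences of the 3 genes with the smallest p-values for maternal diet in females are shown as context for the results on them. Each is the 250 bases upstream of the RefSeq start on the minus strand of GRCm38.p6, written 5' to 3' in the gene's direction. Capitals mark the letters TTCNNNGAA, the core that STAT dimers bind, searched on both strands. Socs3 lies at chr11:117969367-117969616, Stat3 at chr11:100939541-100939790 and Irs2 at chr8:11008930-11009179.
Socs3: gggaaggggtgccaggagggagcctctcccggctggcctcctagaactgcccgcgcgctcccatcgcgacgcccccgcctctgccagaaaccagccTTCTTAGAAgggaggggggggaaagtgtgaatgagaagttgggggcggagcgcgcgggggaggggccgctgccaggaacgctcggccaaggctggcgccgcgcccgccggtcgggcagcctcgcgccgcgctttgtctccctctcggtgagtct
Stat3: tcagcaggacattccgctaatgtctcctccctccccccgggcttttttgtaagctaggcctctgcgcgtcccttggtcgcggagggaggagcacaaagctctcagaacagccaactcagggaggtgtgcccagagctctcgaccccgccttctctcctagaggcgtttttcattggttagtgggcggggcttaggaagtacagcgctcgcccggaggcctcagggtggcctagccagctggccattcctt
Irs2: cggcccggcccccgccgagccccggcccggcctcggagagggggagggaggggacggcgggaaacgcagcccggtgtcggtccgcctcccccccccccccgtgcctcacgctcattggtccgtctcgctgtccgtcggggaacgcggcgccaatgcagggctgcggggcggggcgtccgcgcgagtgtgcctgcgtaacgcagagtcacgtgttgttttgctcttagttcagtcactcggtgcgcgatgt
The Socs3 window held 1 match, TTCTTAGAA, at 154 to 146 bases before the start. This window also lies within the span of the Ensembl gene Socs3, which reaches base 117970047. RefSeq windows were found for 9 of the 10 genes, 11 windows in all with alternative starts. The STAT core was in 1 of these 11 windows, against 7.02% of the 32851 RefSeq promoters in the table. The same core with a spacer of 4 bases, the FOXO core GTAAACA and the cyclic AMP element TGACGTCA, each searched on both strands, were in 0 of the 11 windows. They were in 5.85%, 3.17% and 1.55% of all promoters. GC content was 71.6% in the Socs3 window, 60.8% in that of Stat3 and 72.8% in that of Irs2, while the median of all promoters was 52.4%.

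Library totals were 23118626 to 38547288 read pairs. Xist and Y-linked genes went against the sex label of control female 7 and control male 7. Control female 5, control male 6 and obesogenic female 3 stood apart from the rest, with median correlations of 0.910, 0.914 and 0.936 to the other libraries, where every other library had at least 0.967. Against the tissue label, 25 markers of hypothalamic neurons summed to 191 CPM (read pairs scaled to library size) in control female 5, with 18 of the 25 under 1 CPM and 10 at 0 reads. The 26 libraries without these 5 summed to 1404 to 2662 CPM, with at most 2 markers under 1 CPM. Markers of olfactory bulb and telencephalon summed to 3297 CPM in control female 5 and to 352 to 552 CPM in the 26. Results below are given for all 31 libraries and, where it matters, for the 26 without the 5 in doubt (6 obesogenic female, 6 control female, 8 obesogenic male and 6 control male).

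Lepr and Socs3 were the least abundant of the 10 transcripts, and the adaptor Irs2 and the PI3 kinase subunit Pik3r1 the most abundant. Per kilobase of exon, Irs2 averaged 11.2 ± 2.25 CPM, Pik3r1 10.7 ± 1.42, Stat3 9.66 ± 1.28 and Jak2 8.99 ± 1.99 (SD, n = 31). Ptpn1 averaged 6.30 ± 1.86, Foxo1 4.58 ± 0.72, Insr 4.12 ± 0.60, Irs1 2.40 ± 0.69, Socs3 1.12 ± 0.35 and Lepr 0.668 ± 0.17 CPM per kilobase. The steps from Ptpn1 to Foxo1 and from Irs1 to Socs3 held in 31 of 31 libraries, those from Jak2 to Ptpn1 and from Insr to Irs1 in 30, and that from Socs3 to Lepr in 29. The order of neighbours was less firm elsewhere, holding in 22 libraries for Irs2 over Pik3r1, 24 for Pik3r1 over Stat3, and 23 each for Stat3 over Jak2 and Foxo1 over Insr. Lepr reads are the sum of the long signalling form and the short forms of the receptor, which gene counts do not separate. Lepr had at least 67 read pairs in every library and Socs3 at least 56, so counting error alone was 6.23% to 12.2% of a Lepr value and 7.18% to 13.4% of a Socs3 value. The other 8 genes had at least 372 pairs in every library. In bulk tissue, fewer cells that express a gene and less RNA of it per cell cannot be told apart.

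**Figure D1:**
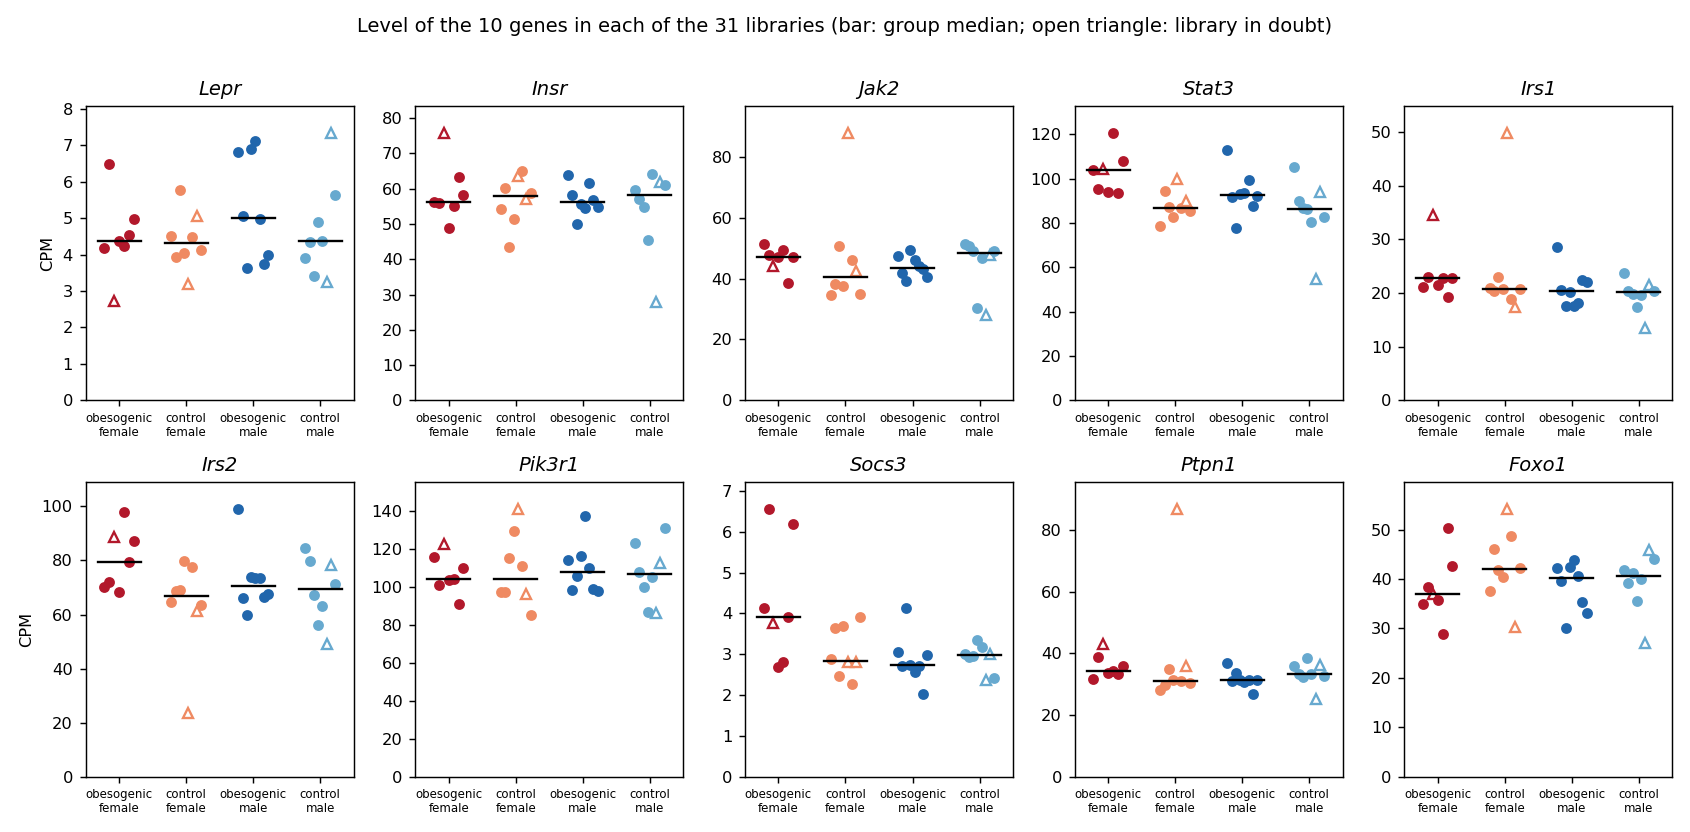
Level of each of the 10 genes (CPM of the library total, y axes from 0) in every library, by sex and maternal diet; bars are group medians and open triangles the 5 libraries in doubt. Socs3 reached 6.56 CPM in obesogenic females against at most 3.91 CPM in control females, and control female 5 stands alone at 86.9 CPM of Ptpn1, 87.9 of Jak2 and 49.8 of Irs1.

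Whether the diet of the dam goes with hypothalamic expression of these genes in daughters was read from obesogenic against control females. Socs3, Irs2 and Stat3 had the largest values, with log2 fold changes of 0.48, 0.33 and 0.22, and none of the 10 genes passed the threshold. By edgeR's quasi-likelihood test with Benjamini-Hochberg adjustment over all genes, 0 of the 10 genes were called at an adjusted p under 0.05, and the background was 0 of 18743 genes, percent called 0. At an unadjusted p under 0.05 there were 3 of the 10 genes, Socs3, Stat3 and Irs2, beside 1522 of 18743 genes (8.12%). DESeq2 called 6 genes (0.0320%) and limma voom 0, none of them among the 10. The median log2 fold change of the 10 was 0.01, with 5 of 10 higher, beside -0.01 for all genes tested. Without the 5 libraries in doubt it was 0.12, with 8 of 10 higher, beside -0.005 for all genes. By voom over all 31 libraries it was 0.14, with 7 of 10 higher, again beside -0.005.

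The 2 receptors showed little difference between obesogenic and control females. Lepr had a lowest, median and highest level of 2.72, 4.38 and 6.48 CPM in obesogenic females, against 3.19, 4.31 and 5.78 CPM in control females. That gave a log2 fold change of 0.03 ± 0.19 (SE; 95% interval -0.35 to 0.42; edgeR adjusted p = 0.970). Insr, the receptor tyrosine kinase for insulin, had 48.8, 56.3 and 75.9 CPM in obesogenic females and 43.5, 58.0 and 65.1 CPM in control females, a log2 fold change of 0.05 ± 0.11 (-0.18 to 0.28; adjusted p = 0.911). Both groups overlapped over most of their ranges for either receptor, and the highest Insr value belonged to obesogenic female 3, a library in doubt. The Insr interval leaves room for differences of up to about 0.28 on the log2 scale, while that of Lepr, with its few reads, is wider.

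Stat3, the transcription factor that carries the leptin signal to the nucleus, had higher values in obesogenic females without passing the test. Its lowest, median and highest levels were 93.7, 104.2 and 120.7 CPM in obesogenic females, against 78.8, 86.8 and 99.8 CPM in control females. All 7 obesogenic female libraries lay above the control female mean and 4 of the 7 above the highest control female, although the ranges overlapped. The TMM-scaled means were 102.3 ± 9.74 CPM in obesogenic females (SD, n = 7) and 87.9 ± 6.48 CPM in control females (SD, n = 8). The log2 fold change was 0.22 ± 0.09 (95% interval 0.05 to 0.39), with an edgeR p of 0.0148 and an adjusted p of 0.549. Without the 5 libraries in doubt it was 0.25 ± 0.08 (adjusted p = 0.543), with 6 of 6 obesogenic females above the control female mean. Jak2, the kinase bound to the leptin receptor, had 38.6, 47.2 and 51.2 CPM in obesogenic females, against 34.7, 40.5 and 87.9 CPM in control females. The highest of these was control female 5, and the log2 fold change was -0.004 ± 0.14 with all libraries (adjusted p = 0.997) and 0.21 ± 0.10 without the 5 (adjusted p = 0.591), so its sign turned.

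The adaptors Irs1 and Irs2 dock on the active insulin receptor, and Irs2 had the higher log2 fold change of the pair in females. Irs2 had a lowest, median and highest level of 68.3, 79.5 and 97.8 CPM in obesogenic females, against 23.4, 66.8 and 79.7 CPM in control females. The 7 obesogenic female libraries all lay above the control female mean and 3 above the highest control female, and the lowest value, 23.4 CPM, was that of control female 5. Over the 26 libraries 4 of 6 lay above the control female mean and 2 above the highest control female. The log2 fold change was 0.33 ± 0.16 (95% interval 0.02 to 0.65; edgeR adjusted p = 0.599), and 0.15 ± 0.11 (adjusted p = 0.707) without the 5 libraries in doubt. Leaving out control female 5 alone gave 0.21. Irs1 had 19.3, 22.7 and 34.4 CPM in obesogenic females, against 17.4, 20.8 and 49.8 CPM in control females, again highest in control female 5, with a log2 fold change of -0.03 ± 0.16 (adjusted p = 0.964). Without control female 5 it was 0.21, as for Irs2, and without obesogenic female 3 it was -0.15, so single libraries set its sign. Pik3r1, the regulatory subunit of PI3 kinase, had 90.8, 104.2 and 122.5 CPM in obesogenic females and 85.1, 104.4 and 141.1 CPM in control females, a log2 fold change of -0.03 ± 0.10 (-0.24 to 0.17; adjusted p = 0.933). Its medians were nearly equal.

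Of the 2 inhibitors, Socs3 had the largest log2 fold change among the 10 genes. Its lowest, median and highest levels were 2.69, 3.92 and 6.56 CPM in obesogenic females, against 2.28, 2.85 and 3.91 CPM in control females. Obesogenic female 2 (6.56 CPM) and obesogenic female 7 (6.20 CPM) lay far above the rest, 4 of 7 exceeded the highest control female (3 of 7 after TMM scaling), and 5 of 7 the control female mean. The TMM-scaled mean was 4.26 ± 1.49 CPM in obesogenic females (SD, n = 7) and 3.06 ± 0.64 CPM in control females (SD, n = 8). The log2 fold change was 0.48 ± 0.19 (95% interval 0.10 to 0.86), with an edgeR p of 0.0145 and an adjusted p of 0.549, and 0.46 ± 0.21 (adjusted p = 0.560) without the 5 libraries in doubt. Leaving out obesogenic female 2 gave 0.35. Ptpn1 had 31.8, 34.3 and 43.2 CPM in obesogenic females, against 28.1, 31.2 and 86.9 CPM in control females, a log2 fold change of -0.11 ± 0.16 (adjusted p = 0.856). The highest value was once more control female 5. Without the 5 libraries in doubt, 6 of 6 obesogenic females lay above the control female mean and the log2 fold change was 0.15 ± 0.07 (95% interval 0.004 to 0.30; adjusted p = 0.581).

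Foxo1, the transcription factor held back by insulin, had 28.9, 36.9 and 50.3 CPM in obesogenic females, against 30.3, 42.0 and 54.2 CPM in control females. That is a log2 fold change of -0.16 ± 0.11 (95% interval -0.39 to 0.07; edgeR adjusted p = 0.694), and of -0.17 without the 5 libraries in doubt. With all libraries 1 of 7 obesogenic females lay above the control female mean and 1 below the lowest control female. Of the libraries not in doubt 4 of 6 after TMM scaling, and 3 of 6 in CPM of the library total, lay below the lowest control female, and 1 lay above the highest.

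**Figure D2:**
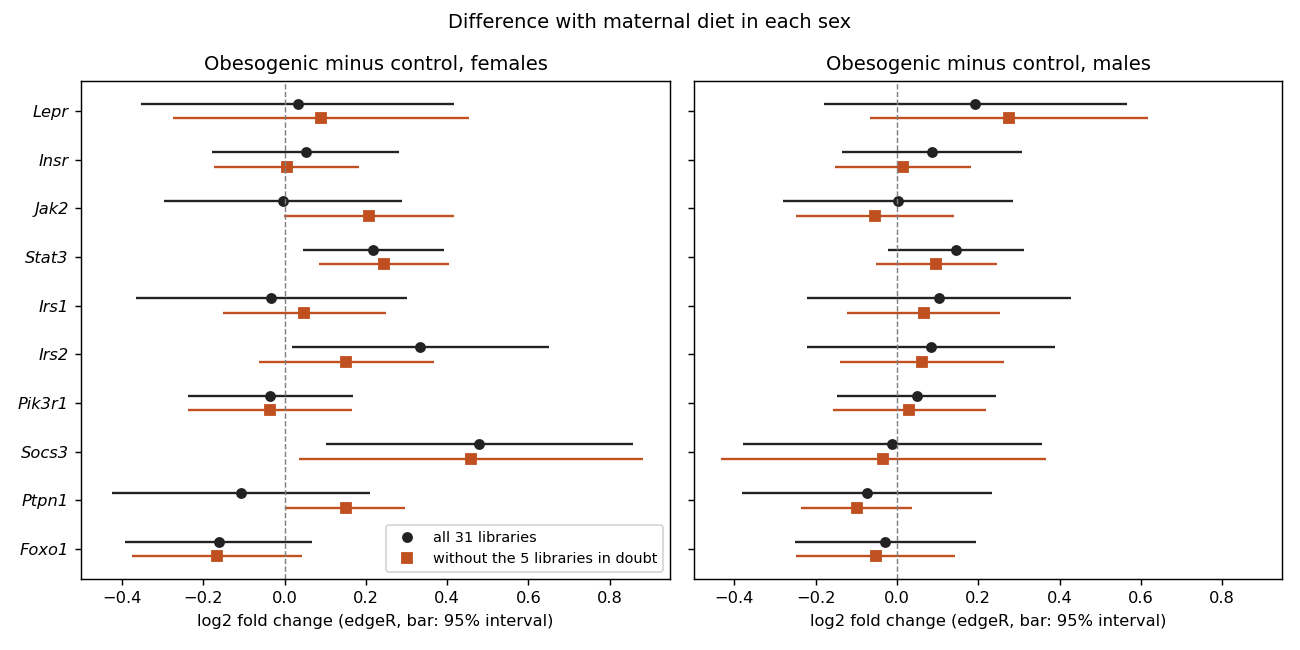
Log2 fold change of each gene with maternal diet (x axis, obesogenic minus control, edgeR), in females at left and males at right; black points use all 31 libraries, orange squares the 26 without those in doubt, and bars are 95% intervals. In females the intervals of Stat3 and Socs3 lie above 0 in both sets, at 0.22 and 0.48 with all libraries, while Ptpn1, Jak2 and Irs1 change sign; in males every interval spans 0.

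In sons the same question was read from obesogenic against control males. By edgeR, 0 of the 10 genes were called between obesogenic and control males, the background being percent called 0, and 0 of the 10 had an unadjusted p under 0.05, beside 647 of 18743 genes (3.45%). DESeq2 called 1 gene (0.00534%) and limma voom 0, none of them among the 10. All 10 intervals spanned 0, with adjusted p of 0.940 to 0.997, and 7 of 10 genes were higher, at a median log2 fold change of 0.07 beside 0.0004 for all genes. Without the 5 libraries in doubt 6 of 10 were higher, at a median of 0.02 beside 0.006 for all genes. By voom 3 of 10 were higher, at -0.02 beside 0.003. Stat3 had 77.6, 92.5 and 112.9 CPM in obesogenic males, against 54.5, 86.4 and 105.4 CPM in control males. Of the obesogenic males 7 of 8 lay above the control male mean, which includes the low value of control male 6, and the log2 fold change was 0.15 ± 0.08 (-0.02 to 0.31). Socs3 had 2.03, 2.73 and 4.15 CPM in obesogenic males and 2.36, 2.99 and 3.35 CPM in control males, a log2 fold change of -0.01 ± 0.18 (-0.38 to 0.36), with 3 of 8 obesogenic males above the control mean. Lepr had 3.64, 5.01 and 7.11 CPM in obesogenic males, against 3.24, 4.36 and 7.34 CPM in control males, a log2 fold change of 0.19 ± 0.18 (-0.18 to 0.56). In obesogenic males 3 libraries lay near 7 CPM and the other 5 near 5 CPM or lower, while the highest control male was library 7, whose sex-linked genes go against its label.

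For the remaining 7 genes the log2 fold change was 0.09 ± 0.11 for Insr, 0.003 ± 0.14 for Jak2, 0.10 ± 0.16 for Irs1, 0.08 ± 0.15 for Irs2, 0.05 ± 0.10 for Pik3r1, -0.07 ± 0.15 for Ptpn1 and -0.03 ± 0.11 for Foxo1. Insr spanned 50.04 to 64.0 CPM in obesogenic males and 27.7 to 64.2 CPM in control males, where 27.7 CPM was control male 6. Median levels in obesogenic against control males were 20.4 and 20.1 CPM for Irs1, 70.6 and 69.3 CPM for Irs2, and 108.0 and 106.6 CPM for Pik3r1. For Jak2 they were 43.6 and 48.4 CPM, for Ptpn1 31.4 and 33.3 CPM, and for Foxo1 40.1 and 40.6 CPM. Control male 6 was the lowest control male for 10 of the 10 genes in CPM of the library total, and for 6 of the 10 after TMM scaling.

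Over both sexes Stat3 had the smallest p of the 10 genes. Its mean log2 fold change was 0.18 ± 0.06 (95% interval 0.06 to 0.30), with an edgeR p of 0.0042 and an adjusted p of 0.464, and 0.17 ± 0.05 (adjusted p = 0.599) without the 5 libraries in doubt. It was the only 1 of the 10 genes at an unadjusted p under 0.05, beside 1918 of 18743 genes (10.2%), and edgeR called 0 of all genes (percent called 0) where DESeq2 called 5 (0.0267%) and voom 0. The value for Socs3 was 0.23 ± 0.13, for Lepr 0.11 ± 0.13 and for Insr 0.07 ± 0.08. The other 6 genes lay between -0.10 and 0.21, and their 6 intervals spanned 0. The diet differences in females and in males were also compared with each other. The difference for Socs3, females minus males, was 0.49 ± 0.26 (-0.04 to 1.02), with an edgeR p of 0.0675 and an adjusted p of 0.9996, and for Stat3 it was 0.07 ± 0.12. For Lepr it was -0.16 ± 0.26 and for Insr -0.03 ± 0.16, so a larger difference in females than in males was not shown for any of these 4 genes. All 10 intervals spanned 0, edgeR called 0 genes (percent called 0), 679 (3.62%) had an unadjusted p under 0.05, and DESeq2 called 6 and voom 0. Over the 26 libraries 9 of 10 intervals spanned 0. The exception was Ptpn1, at 0.25 ± 0.10 (0.05 to 0.45; edgeR adjusted p = 0.99987), against -0.03 ± 0.22 with all 31. Of all 18694 genes tested there, 651 (3.48%) had an unadjusted p under 0.05. Unadjusted p-values under 0.05 were also found for 3 of the 10 genes by voom (Socs3, Ptpn1 and Jak2), beside 1679 of 18743 genes (8.96%). With 2 surrogate variables there were 2 of the 10 (Ptpn1 and Jak2), beside 1091 genes (5.82%). The adjusted p of these genes was at least 0.483.

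Sex was compared within each maternal diet. Among offspring of obesogenic dams, Socs3 averaged 4.26 ± 1.49 CPM in females (SD, n = 7) and 2.89 ± 0.61 CPM in males (SD, n = 8), and 5 of 7 females exceeded the male mean. The log2 fold change, females minus males, was 0.56 ± 0.19 (95% interval 0.18 to 0.94), with an edgeR p of 0.0048 and an adjusted p of 0.99998, and 0.59 ± 0.19 (adjusted p = 0.770) without the 5 libraries in doubt. It was -0.25 ± 0.19 for Lepr, 0.04 ± 0.11 for Insr and 0.12 ± 0.09 for Stat3. Among offspring of control dams, Socs3 averaged 3.06 ± 0.64 CPM in females (SD, n = 8) and 2.91 ± 0.27 CPM in males (SD, n = 8), a log2 fold change of 0.07 ± 0.18, while Lepr had -0.09 ± 0.18, Insr 0.07 ± 0.11 and Stat3 0.05 ± 0.08. The other 6 genes lay between -0.06 and 0.16 in obesogenic and between -0.12 and 0.29 in control offspring, and all their intervals spanned 0. By edgeR 0 of the 10 genes were called in either comparison (percent called 0 in both), 1 and 0 of the 10 had an unadjusted p under 0.05 beside 681 (3.63%) and 823 genes (4.39%), and DESeq2 called 12 (0.0640%) and 1 genes (0.00534%) of all, none among the 10. Without the 5 libraries in doubt edgeR called 14 (0.0749%) and 11 genes (0.0588%), again none among the 10. Control offspring hold both libraries whose sex-linked genes go against the label. With all 31 libraries edgeR called 0 genes in obesogenic offspring, although Xist had 205 to 716 CPM in their females. In their males Xist had at most 0.056 CPM, so 0 called there does not mean that no gene differed. A fit of these 2 groups alone called 12 genes. Without the 5 libraries in doubt the values in control offspring were 0.03 for Lepr, -0.02 for Insr and -0.03 for Stat3, each with the opposite sign.

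Other genes of the 2 pathways were taken from 7 lists (ligands, receptors, JAK-STAT members, inhibitors and phosphatases, adaptors, PI3K-AKT-mTOR kinases and other FOXO factors), of which 96 of 99 genes were tested. None was called in any comparison by edgeR. Between obesogenic and control females 59 were higher and 37 lower, with 12 at an unadjusted p under 0.05 and a median log2 fold change of 0.06. Over all genes 47.5% were higher, 8.12% had such a p and the median was -0.01. Between obesogenic and control males 76 were higher and 20 lower, with 1 at an unadjusted p under 0.05 and a median of 0.07, where over all genes 50.1% were higher, 3.45% had such a p and the median was 0.0004. Without the 5 libraries in doubt the counts were 64 higher and 32 lower in females, and 66 higher and 30 lower in males. JAK-STAT members were higher in 8 of 11 in females, 5 of them at an unadjusted p under 0.05 (3 without the 5 libraries in doubt), and in 8 of 11 in males with 0 such. Inhibitors and phosphatases were higher in 15 of 25 in females and 22 of 25 in males (18 of 25 without the 5), and adaptors in 13 of 17 and 14 of 17. PI3K-AKT-mTOR kinases were higher in 16 of 30 in females and 24 of 30 in males, receptors in 5 of 8 and 6 of 8, the other FOXO factors in 2 of 3 and 1 of 3, and the 2 ligands tested in 0 and 1.

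The 3 pathway genes of smallest p in females were Igf1, Tsc1 and Phlpp2, and none passed the threshold. Igf1, a growth factor ligand related to insulin, averaged 3.87 ± 0.91 CPM in obesogenic females (SD, n = 7) and 9.58 ± 13.6 CPM in control females (SD, n = 8), where control female 5 reached 43.9 CPM. The log2 fold change of Igf1 was -1.31 ± 0.41 (edgeR adjusted p = 0.523), and -0.21 ± 0.21 without the 5 libraries in doubt. Tsc1, a brake on mTOR, had 74.8 to 99.9 CPM in obesogenic females and 55.4 to 87.2 CPM in control females, a log2 fold change of 0.32 ± 0.10 (adjusted p = 0.523). Phlpp2, a phosphatase that acts on AKT, averaged 83.4 ± 5.18 CPM in obesogenic females (SD, n = 7) and 63.6 ± 13.1 CPM in control females (SD, n = 8), a log2 fold change of 0.39 ± 0.13 (adjusted p = 0.524). The ranges of both genes overlapped between the groups. In males the 3 were the adaptors Gab2 and Shc1 and the transcription factor Stat6, with log2 fold changes of 0.25 ± 0.11, -0.18 ± 0.10 and -0.31 ± 0.17, all at an edgeR adjusted p of 0.940. Over both sexes they were Tsc1 at 0.20 ± 0.07, Phlpp2 at 0.25 ± 0.09 and Grb14, an adaptor that inhibits the insulin receptor, at -0.22 ± 0.08, each with an adjusted p of 0.464. Phlpp2 had 0.16 ± 0.06 without the 5 libraries in doubt. For the difference between the sexes in the diet effect they included Igf1 at -1.33 ± 0.56 and the kinase Map2k1 at -0.37 ± 0.19, each with an adjusted p of 0.9996, and these were -0.28 ± 0.29 and -0.088 ± 0.11 without the 5. Among obesogenic offspring, females minus males, they were Shc1 at 0.28 ± 0.10, Stat6 at 0.39 ± 0.17 and Stat2 at 0.25 ± 0.11, each with an adjusted p of 0.99998, and among control offspring Socs2, Igf1 and Cish at 0.86 ± 0.29, 1.09 ± 0.39 and 0.52 ± 0.21, with adjusted p of 0.870 to 0.995. Control female 5 was the highest control female for these 3 genes, with 18.5 CPM of Socs2 (next 9.99), 43.9 CPM of Igf1 (next 6.46) and 16.7 CPM of Cish (next 9.17), and control male 6 had 0.40 CPM of Socs2, the lowest control male. The log2 fold changes in control offspring without the 5 libraries in doubt were 0.53 ± 0.18 for Socs2, 0.13 ± 0.21 for Igf1 and 0.39 ± 0.18 for Cish.

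Another list held 17 genes taken as induced through STAT3 in brain. Its members Fos and Junb are also immediate early genes. Between obesogenic and control females 15 of 17 were higher, at a median log2 fold change of 0.33 (13 of 17 and 0.21 without the 5 libraries in doubt), and between obesogenic and control males 5 of 17, at -0.17 (7 of 17 and -0.06). None was called by edgeR in either sex, 2 in females and 3 in males had an unadjusted p under 0.05 (2 and 1 without the 5), and the difference between the sexes was not called for any of them. All genes had the shares given above, 47.5% higher in females and 50.1% in males, with 8.12% and 3.45% at such a p. Fos, an immediate early gene named after its values were seen, had 6.19 to 45.3 CPM in obesogenic females and 3.47 to 11.6 CPM in control females, a log2 fold change of 1.25 ± 0.47 (adjusted p = 0.549). In males the list's smallest p belonged to Vim, an intermediate filament gene of glia and vessels named likewise, at -0.34 ± 0.12 (adjusted p = 0.940). Markers of astrocytes, which carry part of this list (Gfap and Vim), were higher in 6 of 13 in females and 4 of 13 in males. Their summed level spanned 4081 to 6148 CPM in obesogenic females, 3667 to 6305 in control females, 3723 to 6259 in obesogenic males and 4322 to 6842 CPM in control males, and their part in the counts was not tested. Markers of meningeal fibroblasts, which also express Vim, were lower in 12 of 13 in females and in 12 of 13 in males. Their sum spanned 152 to 267.01 CPM in obesogenic females, 173 to 464 in control females, 168 to 196 in obesogenic males and 148 to 438 CPM in control males. The 464 and 438 CPM were those of control female 5 and control male 6, both in doubt. Among the 26 libraries the highest control female and control male had 353 and 307 CPM. Medians of the 26 were 190 in obesogenic against 197 CPM in control females, and 182 against 187 CPM in males. Ependymal markers were lower in 2 of 12 in females and 12 of 12 in males, and hypothalamic neuron markers in 6 of 24 and 22 of 24. Without the 5 libraries in doubt these were 6 of 12 and 12 of 12 for ependymal cells and 13 of 24 and 20 of 24 for hypothalamic neurons, and the part of any of these lists was not tested either. FOXO targets were higher in 6 of 16 in females and 9 of 16 in males, and appetite genes of leptin-responsive neurons in 9 of 15 and 6 of 15, with 0 called.

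Covariation was measured on log2 CPM after subtracting each group's mean, so that differences between the 4 groups do not enter it. Over 31 libraries 34 of the 45 pairs of the 10 genes had a positive Pearson r, with a median of 0.28 and a range of -0.65 to 0.80. By a permutation test within groups (100000 resamples, two-sided, Benjamini-Hochberg over the 45 pairs), 10 pairs passed an adjusted p of 0.05 by Pearson's r, all positive, and 2 by Spearman's rho. Whether pairs of genes outside the pathway pass less often was not tested. Among passing pairs, Foxo1 ranked 1860 and Irs1 3051 of 18742 genes by r with Insr, and Irs1 ranked 198 by r with Ptpn1. Over all genes the median r was 0.02 with Insr and -0.03 with Ptpn1, and the median absolute r 0.31 and 0.28. Over the 26 libraries without those in doubt, 38 of 45 pairs were positive, with a median of 0.22 and a range of -0.33 to 0.75, and 3 pairs passed by either measure. Leaving out control male 6 alone took the 10 pairs to 1.

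Stat3 with Irs2 and Jak2 with Pik3r1 were the tightest of the 26-library pairs, followed by Insr with Foxo1. Jak2 and Pik3r1 had r = 0.67 and rho = 0.69 over 31 libraries (adjusted permutation p = 0.0072 and 0.0018), and r = 0.68 and rho = 0.74 over 26 (0.0127 and 0.0022), with r = 0.54 and 0.56 when the 2 libraries farthest in Jak2 were left out. Insr and Foxo1 had r = 0.55 and rho = 0.62 over 31 libraries (adjusted permutation p = 0.0214 and 0.0103), and r = 0.56 and rho = 0.61 over 26 (0.0127 and 0.0250), with r = 0.50 and 0.61 without the 2 farthest. Both pairs passed over 31 and over 26 libraries, but leaving out control male 6 alone took Insr with Foxo1 to r = 0.44 and rho = 0.57 (adjusted permutation p = 0.158 and 0.0513). With 2 surrogate variables neither of the 2 pairs passed by Pearson's r. Stat3 and Irs2 had r = 0.25 and rho = 0.44 over 31 libraries (adjusted permutation p = 0.252 and 0.0650), where control female 5 combined high Stat3 with the lowest Irs2. Over 26 libraries they had r = 0.75 and rho = 0.66 (adjusted permutation p = 0.0063 and 0.0250), and r = 0.62 without the 2 farthest. Within the groups of the 26, r of Stat3 with Irs2 was 0.79 in obesogenic females, 0.10 in control females, 0.94 in obesogenic males and 0.75 in control males. For Jak2 with Pik3r1 it was 0.89, 0.49, 0.67 and 0.78, and for Insr with Foxo1 0.63, 0.59, 0.63 and 0.84, in the same order of groups. Among all 18742 other genes, Irs2 ranked 9 by its r with Stat3 over the 26 libraries. From the other side, the fifth named gene by r with Irs2 had 0.86 over these libraries. The fifth had 0.88 with Jak2, 0.90 with Pik3r1, 0.82 with Insr and 0.71 with Foxo1, each above the r of its pair.

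No pair among Lepr, Stat3 and Socs3, the receptor, its effector and the effector's target, reached the threshold. Lepr and Stat3 had r = 0.17 and rho = 0.04 (adjusted permutation p = 0.547 and 0.940), Lepr and Socs3 r = 0.08 and rho = 0.002 (0.883 and 0.991), and Socs3 and Stat3 r = -0.05 and rho = 0.02 (0.883 and 0.951) over 31 libraries. Without the 2 farthest libraries these were r = 0.15, 0.06 and -0.03. Jak2 and Stat3 had r = 0.54 and rho = 0.50 (adjusted permutation p = 0.0115 and 0.0532; r = 0.42 without the 2 farthest), but r = 0.39 over 26 libraries (adjusted p = 0.187). The receptors Lepr and Insr had r = 0.005 and rho = -0.05 (0.980 and 0.920; r = 0.07 without the 2 farthest), that is, no detectable relation at n = 31. Insr and Irs1 had r = 0.45 and rho = 0.45 (0.0354 and 0.0650; 0.45 without the 2 farthest) and r = 0.15 over 26 libraries (adjusted p = 0.648).

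Irs2 and Ptpn1 showed how far 1 library set a relation. The largest positive r was that of Ptpn1 with Irs1, r = 0.80 and rho = 0.47 (adjusted permutation p = 0.0175 and 0.0650). Without control female 5 it had r = 0.48 (adjusted p = 0.058). The largest negative r was that of Ptpn1 with Irs2, r = -0.65 and rho = -0.09 (adjusted permutation p = 0.252 and 0.792), which was 0.31 without control female 5. Without the 2 libraries farthest in Ptpn1 the values were r = 0.43 with Irs1 and -0.02 with Irs2. The relation with Irs2 thus rests on those libraries, while that with Irs1 was smaller without them. Irs1 with Irs2 had r = -0.36 and rho = 0.20 (0.253 and 0.429; 0.42 without the 2 farthest), and r = 0.62 without control female 5 (adjusted p = 0.0171). Insr with Irs2 had r = 0.20 and rho = 0.37 (0.384 and 0.129; 0.17 without the 2 farthest), and r = 0.54 without control female 5 (adjusted p = 0.0218). Irs2 with Foxo1 had r = -0.02 and rho = 0.27 (0.970 and 0.265; 0.34 without the 2 farthest), and Insr with Pik3r1 r = 0.29 and rho = 0.25 (0.253 and 0.317; 0.31 without the 2 farthest).

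**Figure D3:**
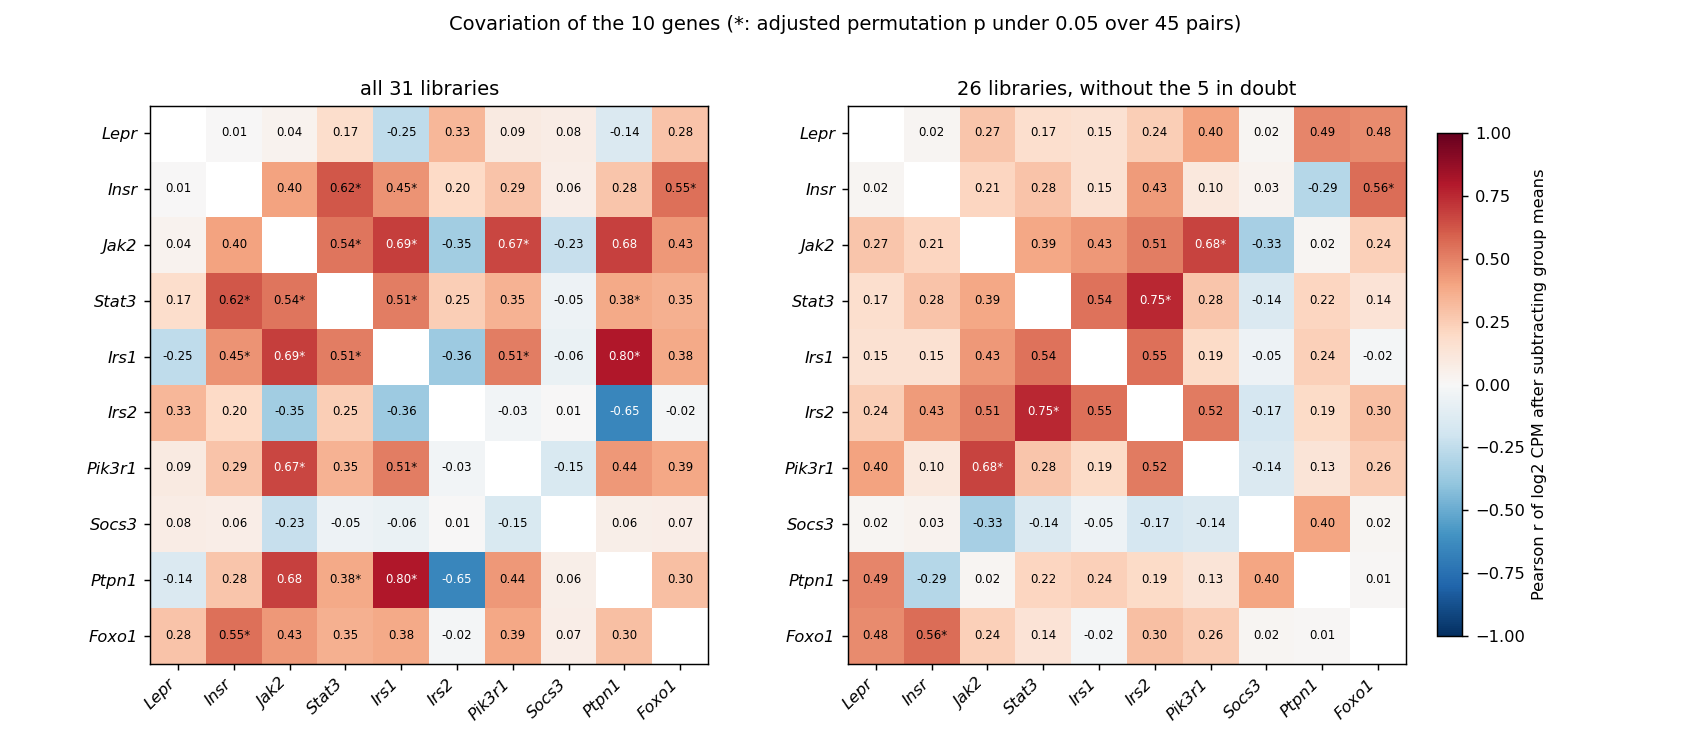
Pearson r between the 10 genes (both axes) across libraries after subtracting group means, over all 31 libraries at left and over the 26 without those in doubt at right, from -1 in blue to 1 in red; stars mark an adjusted permutation p under 0.05 over 45 pairs. There are 10 starred pairs at left and 3 at right, and the row of Socs3 stays between -0.33 and 0.40 at right.

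**Figure D4:**
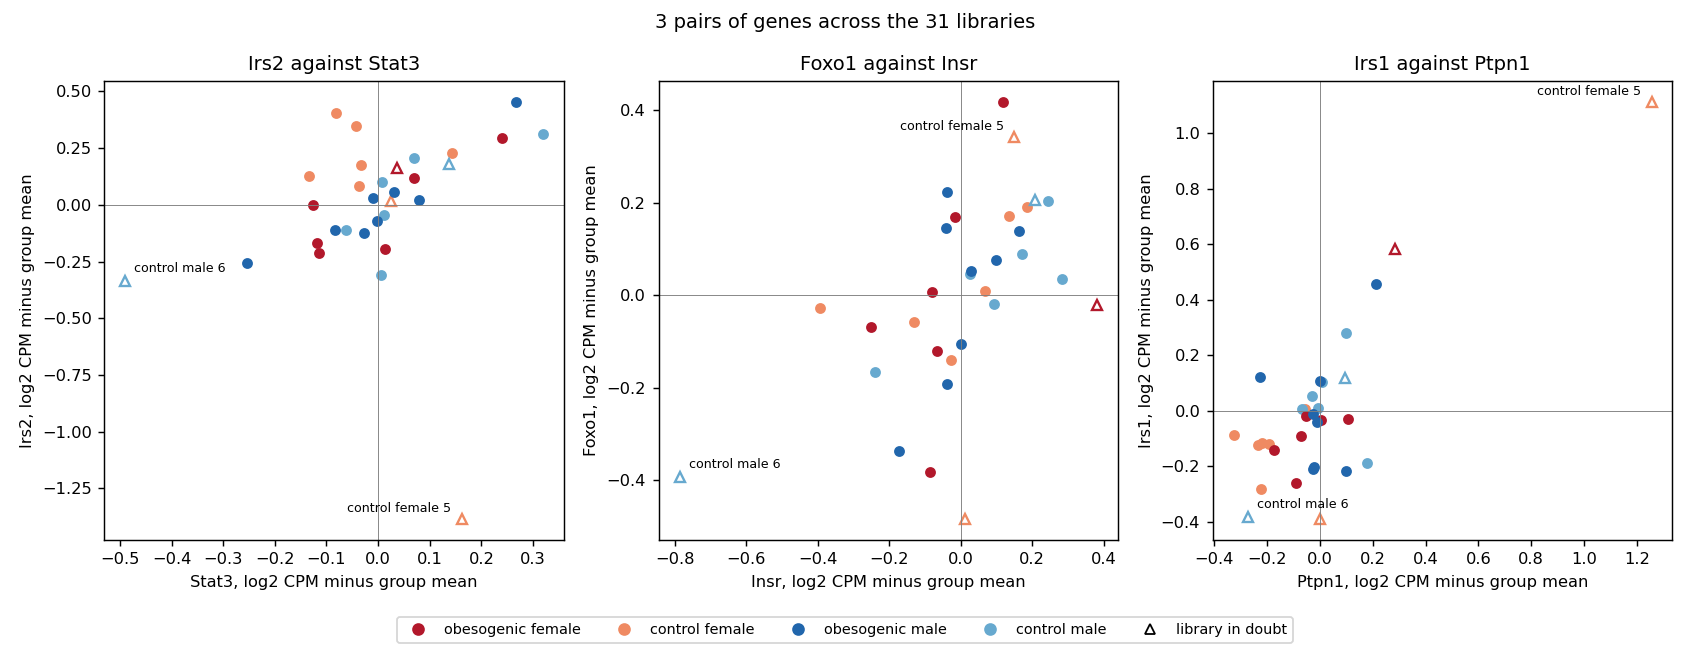
3 pairs of genes, each point 1 library, on log2 CPM minus the group mean on both axes, coloured by group with the libraries in doubt as open triangles. Control female 5 lies alone in the Irs2 against Stat3 and Irs1 against Ptpn1 panels, and r is 0.25 with and 0.75 without the libraries in doubt for Irs2 with Stat3, and 0.80 and 0.24 for Irs1 with Ptpn1.

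The genes most alike to the receptors and to Socs3 were taken by Pearson r over the 31 group-centred libraries, as a description. For Insr they included Mtr (r = 0.89), Ntrk3 (0.87), Cnot6l (0.86) and Syne1 (0.86). For Lepr they were Pard3b (0.67), Sgo2a (0.67), Pkd1l3 (0.66), Prdm9 (0.64) and Il6st (0.63), the last of which encodes the receptor chain gp130. For Socs3 they were Rassf10 (0.64), Hsf3 (0.58), Micu2 (0.54), the pseudogene Smarce1-ps1 (0.53) and Myo1c (0.52). Of these only Rassf10, Hsf3 and Micu2 were also among the first 5 of their gene over 26 libraries, at 0.79, 0.63 and 0.62. Over 26 libraries Insr was led by Tmed10 (0.85) and Canx (0.84), and Lepr by P2ry6 (0.72) and Tet3 (0.72). The other 9 genes of the pathway did not lead these orders. Over 31 libraries the nearest to Insr was Stat3, at rank 1163 of 18742, the nearest to Lepr was Irs2 at rank 2060, and the nearest to Socs3 was Lepr at rank 6400. Over 26 libraries the nearest were Foxo1 at rank 487 for Insr, and Ptpn1 at rank 372 for Lepr and at rank 459 for Socs3.

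Cell type markers moved with several of the genes across all 31 libraries. Of 120 relations between the 10 genes and 12 marker lists, 16 passed an adjusted permutation p of 0.05 by Pearson's r. Insr went with lower oligodendrocyte markers (r = -0.71, rho = -0.69, adjusted permutation p = 0.0012 for both; r = -0.68 without the 2 farthest libraries) and lower microglial markers (r = -0.64, rho = -0.58, 0.0028 and 0.0210; r = -0.53). Ptpn1 went with lower hypothalamic neuron markers (r = -0.90, rho = -0.60, 0.0485 and 0.112; r = -0.55). Over the 26 libraries 1 relation passed, that of Pik3r1 with hypothalamic neuron markers (r = -0.67, rho = -0.60, adjusted permutation p = 0.0432 and 0.185; r = -0.57 without the 2 farthest), and the values for Insr were -0.60 with oligodendrocytes and -0.56 with microglia (0.116 for both). Socs3 passed with none of the 12 lists in either set. Stat3 went with higher immediate early genes over 31 libraries (r = 0.49, rho = 0.40, adjusted permutation p = 0.0184 and 0.209; r = 0.35) and had r = 0.60 over 26 (0.116; 0.27 without the 2 farthest). The summed immediate early genes were highest in obesogenic female 5 (351 CPM) and obesogenic male 1 (320 CPM) of the 26, whose median was 153 CPM, and Stat3 was highest in the same libraries of their groups, at 120.7 and 112.9 CPM. Whether cell makeup or these genes account for any of the differences with diet was not tested.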

How the data were processed

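The submitters' processing notes name FastQC, TopHat2 2.0.13, Subread, edgeR and build mm10. The deposited values are raw, whole-number counts of read pairs per gene, which featureCounts 1.6.2 made from Ensembl GRCm38 release 94 per the file headers. Only pairs mapped at both ends, with mapping quality 10 or more and on the reverse strand, were counted, and the authors did not normalize them. Column names matched 31 library titles, 0 columns were left unused, and symbols were found for 54409 of 54532 gene IDs. None of the 10 genes shares exon bases with another gene on its strand. No libraries were merged as repeats, since even the most similar pair had a chi-square per degree of freedom of 8.02 (17455 genes).

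edgeR 4.0.16 in R 4.3.3 fitted 1 mean per group over all 31 libraries (filterByExpr, which kept 18743 genes, TMM scaling, robust quasi-likelihood), with Benjamini-Hochberg adjustment over all genes tested and 0.05 as the threshold. CPM of single libraries use library totals, and group means are TMM-scaled. Covariation used log2 CPM with a prior count of 2 in Python 3.11.15 with scipy 1.17.1. Both steps were tested on simulated data without outlying or mislabelled libraries, so those tests do not cover the libraries in doubt. Alternatives were DESeq2 1.42.0, limma 3.58.1 voom with quality weights, RLE factors, no scaling, no filter, 1 CPM in 7 libraries, 2 surrogate variables (sva 3.50.0), a fit of the 2 compared groups alone, and fits without the 5 libraries in doubt or without the 2 that have 2 numbers in the title. Fits without each library in turn were added after seeing the data. A library was taken to stand apart when its median correlation to the others was more than 3 median absolute deviations under that of the typical library. The 10 genes, the lists and the tests were chosen with earlier results of these data known. By rule, all 10 genes are reported, with the 3 pathway genes of smallest p per comparison and the 5 genes most alike to Lepr, Insr and Socs3, of which 2 genes are not reported here. In the comparisons other than diet within a sex, 6 of the 10 are given as ranges. Counting errors cover read sampling only.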

Additional observations from a re-analysis of the deposited data

Results flagged for a closer look

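In 40 sets (10 genes in 4 groups), 9 held a library whose gap to its nearest neighbour was large for the group's range, and 6 of the 9 were libraries in doubt. Chance alone flags about 1 in 20 such sets. Control female 5 gave 4 of them, with 86.9 CPM of Ptpn1 where the next control female had 36.02, 87.9 CPM of Jak2 where the next had 50.6, 49.8 CPM of Irs1 where the next had 23.1, and 23.4 CPM of Irs2 where the next had 61.2. Control male 6 had 25.2 CPM of Ptpn1, below 32.5 in the next control male. Obesogenic female 3 had 34.4 CPM of Irs1, above 22.9 in the next. The 3 in libraries not in doubt were obesogenic male 1, with 28.6 CPM of Irs1 (next 22.4) and 99.1 CPM of Irs2 (next 73.7), and obesogenic male 5, with 137.4 CPM of Pik3r1 (next 116.3). Obesogenic male 1 also had the highest Stat3 and immediate early gene levels of its group.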

How the results depend on the processing

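No paired analysis was possible because the library titles share no replicate numbers across groups. Under every alternative run, 0 of the 10 genes were called in any comparison, and the sign of the Socs3, Stat3 and Irs2 differences in females was the same: over 11 settings Socs3 had 0.45 to 0.59 (adjusted p 0.202 to 0.628), Stat3 0.21 to 0.25 (0.201 to 0.615) and Irs2 0.15 to 0.37 (0.273 to 0.707), with 0.35 to 0.56, 0.17 to 0.25 and 0.21 to 0.39 leaving out 1 library at a time. The causes of the changes below were not tested. All genes called, 0 in the 6 comparisons by edgeR, numbered 6, 1, 5, 6, 12 and 1 by DESeq2. For sex in obesogenic offspring they numbered 3 by voom, 5 with 2 surrogate variables, 14 without the 5 libraries in doubt, 12 with only the 2 groups, and 0 to 9 leaving out 1 library (9 without control female 7, 3 without control male 7, 2 without control male 6). For sex in control offspring they numbered 11 without the 5 and 0 to 6 leaving out 1 library (6 without control female 7, 1 without control male 7). Pairs past the threshold, 10 over all libraries, numbered 3 without the 5 (2 of them among the 10), 3 with 2 surrogate variables (0 among the 10), and 1 to 13 leaving out 1 library (1, among the 10, without control male 6).

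Log2 fold changes of small size turned. In females, voom gave -0.0028 for Insr, 0.15 for Ptpn1, 0.21 for Jak2 and 0.12 for Irs1. With 2 surrogate variables the values were -0.031 for Lepr, 0.12 for Ptpn1, 0.13 for Jak2, 0.16 for Irs1 and 0.0088 for Pik3r1, and without the 5 libraries 0.15 for Ptpn1, 0.21 for Jak2 and 0.049 for Irs1. In males voom gave -0.027 for Insr, -0.10 for Jak2, -0.015 for Irs2 and -0.014 for Pik3r1. Jak2 was -0.0049 without scaling, -0.00020 without a filter, -0.0026 with 1 CPM in 7 libraries, -0.098 with 2 surrogate variables, -0.054 without the 5 and -0.011 without the 2 libraries with 2 numbers in the title. Insr was -0.015 by voom over both sexes. In the difference between sexes Insr was 0.024 by voom, 0.045 with 2 surrogate variables and 0.0032 without the 2 titles. For sex in obesogenic offspring Insr was -0.034 by voom and -0.034 without the 5. For sex in control offspring Lepr was 0.029 without the 5, Insr -0.058 by voom and -0.025 without the 5, and Stat3 -0.041, -0.020 and -0.032 by voom, with 2 surrogate variables and without the 5. Leaving out 1 library gave, in females, -0.071 to 0.12 for Lepr, -0.019 to 0.089 for Insr, -0.16 to 0.17 for Ptpn1, -0.054 to 0.19 for Jak2, -0.15 to 0.21 for Irs1 and -0.079 to 0.026 for Pik3r1. In males it gave -0.0034 to 0.13 for Insr, -0.11 to 0.042 for Socs3, -0.062 to 0.035 for Jak2, -0.081 to 0.015 for Foxo1 and -0.0072 to 0.099 for Pik3r1. For Insr it gave -0.10 to 0.057 in the difference between sexes, -0.029 to 0.079 for sex in obesogenic and -0.012 to 0.12 in control offspring, where Lepr had -0.15 to 0.034 and Stat3 -0.0073 to 0.098.

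Of the correlations, Lepr with Socs3 was -0.020 and Socs3 with Stat3 0.21 with group means kept, and Socs3 with Stat3 0.035 without scaling. With 2 surrogate variables Lepr with Insr was -0.24, Irs1 with Irs2 0.61, Irs2 with Foxo1 0.25 and Ptpn1 with Irs2 0.068. Without the 5 the last 3 were 0.55, 0.30 and 0.19, and Irs2 with Foxo1 was 0.028 without scaling. Leaving out 1 library gave -0.075 to 0.20 for Lepr with Socs3, -0.15 to 0.074 for Socs3 with Stat3, -0.19 to 0.16 for Lepr with Insr, -0.48 to 0.62 for Irs1 with Irs2, -0.099 to 0.44 for Irs2 with Foxo1 and -0.73 to 0.31 for Ptpn1 with Irs2. Depth limits Lepr and Socs3 most, since their counting error per library reaches 12.2% and 13.4%.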

Other observations

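Over the 26 libraries without those in doubt, the 2 inhibitors Socs3 and Ptpn1 had r = 0.40 and Lepr with Ptpn1 r = 0.49, neither past the adjusted permutation threshold over 45 pairs. The median r of the 45 pairs within a group was 0.02 in obesogenic females, 0.11 in control females, 0.45 in obesogenic males and 0.30 in control males of these 26, and whether the groups differ in this was not tested. The genes most alike to other members over the 26 libraries were seen after the data were compared and are a description only. Foxo1 had r = 0.73 with Ghsr, the ghrelin receptor, Ptpn1 r = 0.76 with Irx3, a homeobox gene, and Irs2 r = 0.87 with Rgs4, a regulator of G protein signalling.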
